A study of Mus musculus with 8 samples.

Results

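Acyl-CoA thioesterases of mouse liver are described here through 8 genes, *Acot1*, *Acot2*, *Acot3*, *Acot4*, *Acot7*, *Acot8*, *Acot12* and *Acot13*. They were chosen by name, as the cytosolic, mitochondrial and peroxisomal enzymes of this kind, and not by a rule on their values. Earlier results of these data were known when the choice was made. All 8 had a row among the 38283 genes of the deposited expression values, and all 8 were above 1 FPKM in every library. FPKM is the number of sequenced fragments of a gene, scaled by the length of its transcript and by the mapped fragments of the library. The libraries are poly(A) RNA of whole liver from C57BL/6 mice. In RORα f/f mice, exons 4 and 5 of *Rora* are flanked by loxP sites in every cell. RORα LKO mice (Alb-cre;RORα f/f) carry the same sites together with Cre recombinase under the albumin promoter, which acts in hepatocytes. Cells of the liver in which Cre does not act keep the gene. Both genotypes were fed a control diet (CD) or a high-fat diet (HFD) for 10 weeks, starting at 8 weeks of age. The 4 groups were CD-fed f/f, CD-fed LKO, HFD-fed f/f and HFD-fed LKO, with 2 libraries in each, and every library pooled the livers of 2 mice.

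Acyl-CoA thioesterases cut the bond between a fatty acid and coenzyme A, which releases the free acid and returns the coenzyme. They work against the acyl-CoA synthetases, and the balance between both kinds of enzyme sets how much activated fatty acid a compartment holds. Type I enzymes (*Acot1* to *Acot6*) share an alpha/beta-hydrolase fold and stand in tandem in the genome. *Acot1* acts in the cytosol, *Acot2* in mitochondria, and *Acot3* and *Acot4* in peroxisomes. Type II enzymes share the hotdog fold and are otherwise unrelated to type I. Among them *Acot7* and *Acot12* are mainly cytosolic, *Acot8* is peroxisomal, and *Acot13*, also called Them2, is bound to mitochondria and interacts with the phosphatidylcholine transfer protein Pctp. *Acot12* prefers acetyl-CoA, whereas *Acot1* and *Acot2* prefer long chains. In rodent liver several of these genes, *Acot1* above all, respond to fasting and to ligands of PPARα, the nuclear receptor of fatty acid oxidation.

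The type I genes stand within 123.489 kb of chromosome 12 (GRCm38), all on the plus strand, in the order *Acot2*, *Acot1*, *Acot4*, *Acot3*, *Acot5* and *Acot6* (GENCODE M21). *Acot2* (ENSMUSG00000021226) spans 83987861 to 83993873, and *Acot1* (ENSMUSG00000072949) follows after 15.616 kb, from 84009490 to 84018371. *Acot4* (ENSMUSG00000052392) spans 84038379 to 84048601, and *Acot3* (ENSMUSG00000021228) begins 3.542 kb further on, from 84052144 to 84060402. The type II members are scattered. *Acot7* (ENSMUSG00000028937) lies on chromosome 4 from 152178134 to 152271855, and *Acot8* (ENSMUSG00000017307) on the minus strand of chromosome 2 from 164792765 to 164804882. *Acot12* (ENSMUSG00000021620) and *Acot13* (ENSMUSG00000006717) are both on chromosome 13, at 91741512 to 91786148 on the plus strand and at 24817948 to 24831540 on the minus strand.

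The coding sequences of *Acot1* and *Acot2* were identical at 95.55% of 1236 aligned bases, against 84.01% for *Acot1* and *Acot3* and 77.29% for *Acot1* and *Acot4*. This matters for every value of *Acot1* and *Acot2*, because a read from an identical stretch cannot be placed. The following 90 bases of coding sequence were chosen as a window with the fewest differences between the pair, and capitals mark the bases that differ from *Acot1*. They begin at base 397 of the coding sequence in *Acot1* and *Acot4*, base 520 in *Acot2* and base 430 in *Acot3*.
Acot1: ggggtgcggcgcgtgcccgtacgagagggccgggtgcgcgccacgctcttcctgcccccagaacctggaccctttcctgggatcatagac
Acot2: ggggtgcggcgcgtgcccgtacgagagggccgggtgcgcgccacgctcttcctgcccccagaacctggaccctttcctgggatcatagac
Acot3: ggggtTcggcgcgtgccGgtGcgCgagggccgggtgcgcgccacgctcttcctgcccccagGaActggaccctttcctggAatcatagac
Acot4: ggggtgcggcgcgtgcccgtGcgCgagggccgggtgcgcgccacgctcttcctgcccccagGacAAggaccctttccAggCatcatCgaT
The second window of 90 bases is the first with the most differences between *Acot1* and *Acot2*, and begins at base 106 in *Acot1* and *Acot4*, base 229 in *Acot2* and base 139 in *Acot3*.
Acot1: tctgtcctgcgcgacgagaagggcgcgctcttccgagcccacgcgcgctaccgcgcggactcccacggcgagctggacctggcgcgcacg
Acot2: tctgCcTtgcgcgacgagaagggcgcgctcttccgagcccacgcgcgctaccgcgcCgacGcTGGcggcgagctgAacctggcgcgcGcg
Acot3: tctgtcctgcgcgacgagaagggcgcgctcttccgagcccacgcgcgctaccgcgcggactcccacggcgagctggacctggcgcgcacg
Acot4: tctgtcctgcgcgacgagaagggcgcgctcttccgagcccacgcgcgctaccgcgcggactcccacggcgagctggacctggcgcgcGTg
In the first window *Acot2* had 0 differences from *Acot1*, *Acot3* had 7 and *Acot4* had 9. In the second, *Acot2* had 9, *Acot3* had 0 and *Acot4* had 2, so that the nearest relative of *Acot1* changed along the gene.

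Over whole transcripts, 748 of the 2223 50-base windows of *Acot1* (33.65%) were found letter for letter in a transcript of another gene, and 527 of these 748 were found in *Acot2*. The share was 27.71% for *Acot2*, 21.7% for *Acot3* and 14.43% for *Acot4*. In *Acot3* the gene that held the most windows was *Gm49366*, a predicted gene on the same strand that overlaps *Acot3* and *Acot4*, and in *Acot4* it was the antisense gene *4732463B04Rik*. *Acot8* shared 17.68% of its windows with *Snx21*, a gene on the opposite strand that runs into its end, and *Acot12* shared 3.323% with the antisense gene *4833422C13Rik*. The library kit did not mark the strand, so reads from such overlaps cannot be told apart. *Acot7* and *Acot13* shared 0 windows. The FPKM values of *Acot1* to *Acot4* are therefore uncertain in how reads were divided between copies, and *Acot13* and *Acot7* carry no such uncertainty at this window length.

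**Figure D1:**
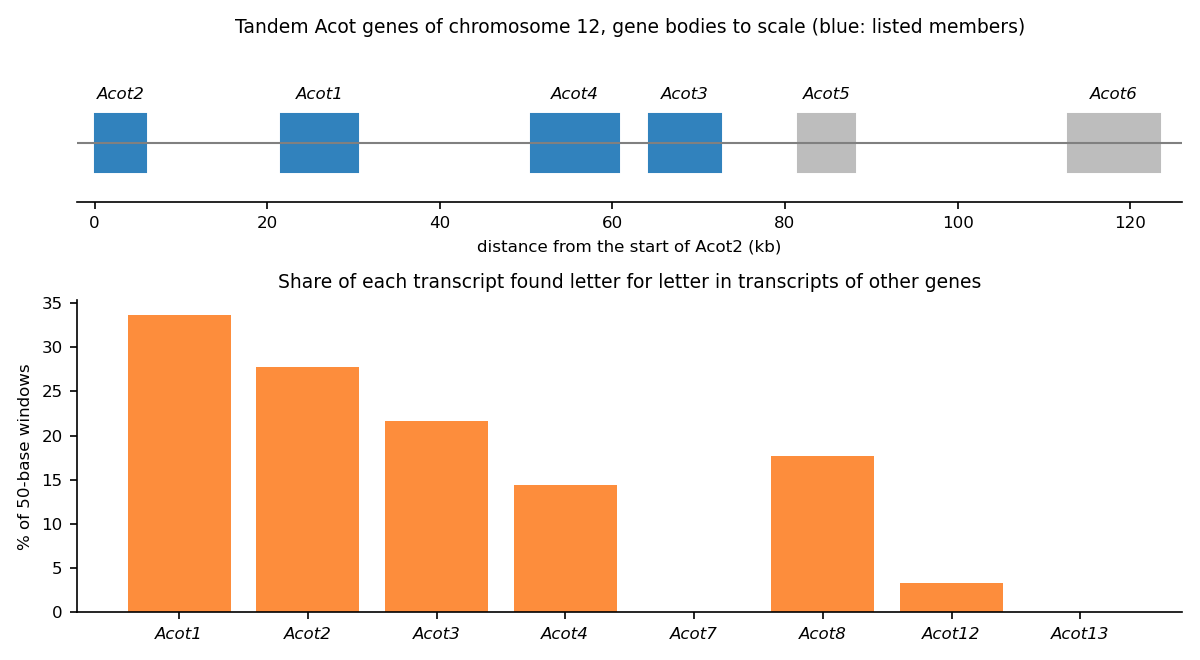
Top, position of the 6 tandem *Acot* genes as distance in kb from the start of *Acot2*, with gene bodies to scale. Bottom, percentage of the 50-base windows of each transcript that occur in a transcript of another gene, highest in *Acot1* (33.65%) and 0 in *Acot7* and *Acot13*.

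The 250 bases upstream of the start (RefSeq, GRCm38.p6) were read for 7 of the 8 members, all but *Acot13*. For *Acot7* the window (chr4:152185358-152185607) lies inside the gene span given above, so sequence upstream of that span was not read. PPARα and PPARγ bind, with RXR, to a direct repeat with a spacer of 1 base, written here AGGTCANAGGTCA. With at most 2 mismatches in the 12 fixed bases, on either strand, this repeat stood in 3.24% of 32851 upstream windows of all genes. Among the members it stood in *Acot12* (chr13:91741271-91741520, plus strand) with 1 mismatch and in *Acot4* (chr12:84038129-84038378, plus strand) with 2. Capitals mark the match, which in both reads on the minus strand.
Acot12: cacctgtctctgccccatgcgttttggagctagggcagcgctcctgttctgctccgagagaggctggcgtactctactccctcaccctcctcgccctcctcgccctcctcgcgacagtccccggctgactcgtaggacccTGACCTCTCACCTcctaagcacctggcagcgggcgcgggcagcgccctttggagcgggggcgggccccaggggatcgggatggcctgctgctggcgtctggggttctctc
Acot4: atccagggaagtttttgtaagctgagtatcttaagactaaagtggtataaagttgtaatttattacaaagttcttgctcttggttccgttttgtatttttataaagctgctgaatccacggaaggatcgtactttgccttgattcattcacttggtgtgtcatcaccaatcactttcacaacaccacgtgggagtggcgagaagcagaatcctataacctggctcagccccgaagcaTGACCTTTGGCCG
The same 2 windows were the only ones of the 7 members to hold AGGTCA, the 6-base element that RORα also reads, on either strand, and both copies lie inside the capitals. AGGTCA stood in 14.0% of all upstream windows. These are matches of letters and not measured binding.

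The libraries were alike in breadth, with 10587 to 10706 genes above 1 FPKM. The second CD-fed f/f library stood apart, with 43.7% of its summed FPKM in its 10 highest genes against 29.7% to 38.0% in the other 7. *Rora* overlapped between the genotypes on HFD, with 7.30 and 8.02 FPKM in LKO and 7.56 and 7.86 in f/f, and was 7.96 and 8.18 against 8.85 and 8.59 on CD (limma, adjusted p = 0.974 and 0.613). A value for the whole gene includes the exons that are not deleted, so it does not check the deletion, and the libraries are called by their labels throughout. Hepatocyte markers were abundant, *Apoa1* at 4407 FPKM or more and *Ttr* at 3994 or more, but not all were even between groups. On HFD *Cps1* was at 456 and 455 FPKM in LKO and at 596 and 666 in f/f (limma, adjusted p = 0.31). *Tat* was lower on HFD in f/f (limma, adjusted p = 0.0266), where *Ttr* was higher (limma, adjusted p = 0.108). On CD *Tat* was lower in LKO (limma, adjusted p = 0.223) and *Apoa1* higher (limma, adjusted p = 0.326). *Alb* was listed at 0 in 4 libraries (the first CD-fed LKO, both HFD-fed LKO and the second HFD-fed f/f) and at 29902 to 30888 FPKM in the others, and a gene that every hepatocyte uses cannot be read from such a 0. Tests below used limma on quantile-normalized log2(FPKM + 1) of 11634 genes above 1 FPKM in at least 1 library, with p-values adjusted over all of them within each comparison. This scale understates changes of genes with low FPKM, such as *Acot2*.

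*Acot12* and *Acot13* were the most abundant thioesterases of these livers. Over the 8 libraries *Acot12* was at 67.3 ± 5.52 FPKM and *Acot13* at 52.5 ± 5.43 (mean ± SD, n = 8 over the 4 groups), and they ranked first and second in every library. *Acot1* followed at 23.0 ± 9.01, *Acot3* at 22.5 ± 8.44, *Acot8* at 16.7 ± 2.47, *Acot4* at 13.2 ± 2.55 and *Acot7* at 11.1 ± 1.07. *Acot2* was last in every library, at 3.12 ± 1.05. Neighbours in this order were compared by the log2 ratio within each library, in an exact two-sided sign-flip permutation test whose smallest possible p is 0.00781. The order came from the same 8 libraries, and a pair ordered alike in all 8 always gives that smallest p. The test thus restates the order in these libraries and is no separate evidence for it. After adjustment over the 7 neighbour pairs, *Acot12* stood above *Acot13* (by 1.28-fold), *Acot13* above *Acot1* (by 2.42-fold) and *Acot7* above *Acot2* (by 3.74-fold), each in 8 of 8 libraries with an exact adjusted p of 0.0182. The other 4 neighbour pairs did not pass. *Acot1* was above *Acot3* in 5 of 8 libraries (exact adjusted p = 0.898), *Acot3* above *Acot8* in 6 (0.1, exact), *Acot8* above *Acot4* in 6 (0.0684, exact) and *Acot4* above *Acot7* in 7 (0.0875, exact).

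Of the family members outside the list, *Acot9* (1.21 to 1.85 FPKM) and *Acot11* (1.99 to 3.49 FPKM) were low, *Acot6* stayed between 0.299 and 0.879, *Acot10* was listed at 0 in all libraries and *Acot5* in 7 of 8. The 8 listed genes summed to 171 to 239 FPKM per library. *Acot12* and *Acot13* together made up 49.0% to 63.3% of this sum, and the share of *Acot1* ranged from 7.36% to 15.7%. The ratio of *Acot1* to *Acot2* ran from 5.47 to 11.1 between libraries.

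**Figure D2:**
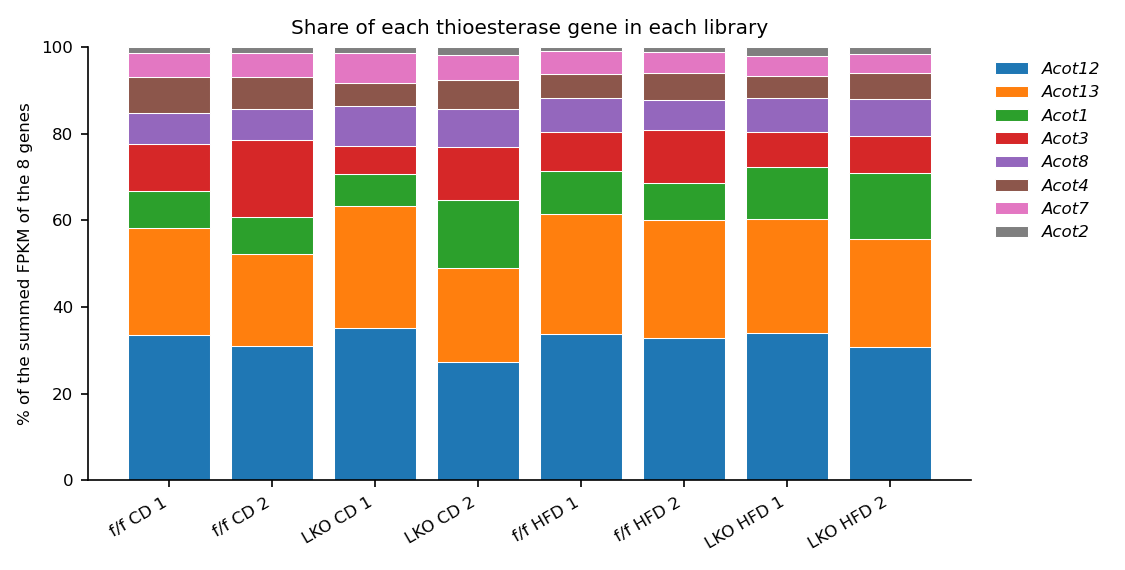
Percentage of the summed FPKM of the 8 genes taken by each gene, 1 bar per library. *Acot12* and *Acot13* hold 49.0% to 63.3% of each bar, and the shares of *Acot1* and *Acot3* vary most.

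The members split by how far libraries of the same group differed. *Acot13* was among the most even genes of the liver, since its 2 libraries differed by at most 1.03-fold in every group, and only 0.335% of tested genes had a smaller pooled SD within groups. *Acot12* was next, with 10.4% of genes below it, and its libraries differed by at most 1.08-fold. *Acot1* and *Acot3* lay at the other end, above 97.6% and 98.0% of genes, and *Acot2* and *Acot4* above 92.5%. *Acot7* (29.3%) and *Acot8* (65.0%) were in between.

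Much of the spread of the tandem genes came with the CD-fed LKO libraries. The first of them had 12.6 FPKM of *Acot1*, 2.30 of *Acot2*, 11.2 of *Acot3* and 8.95 of *Acot4*, and the second 35.9, 4.45, 28.2 and 15.5. The first was thus the lowest of all 8 libraries for *Acot1*, *Acot3* and *Acot4*. *Acot3* and *Acot4* were highest in the second CD-fed f/f library, the one that stood apart in its most abundant genes, at 39.2 and 16.1 FPKM. In the same CD-fed LKO libraries *Acot12* was at 59.96 and 62.8 FPKM and *Acot13* at 48.2 and 49.7.

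**Figure D3:**
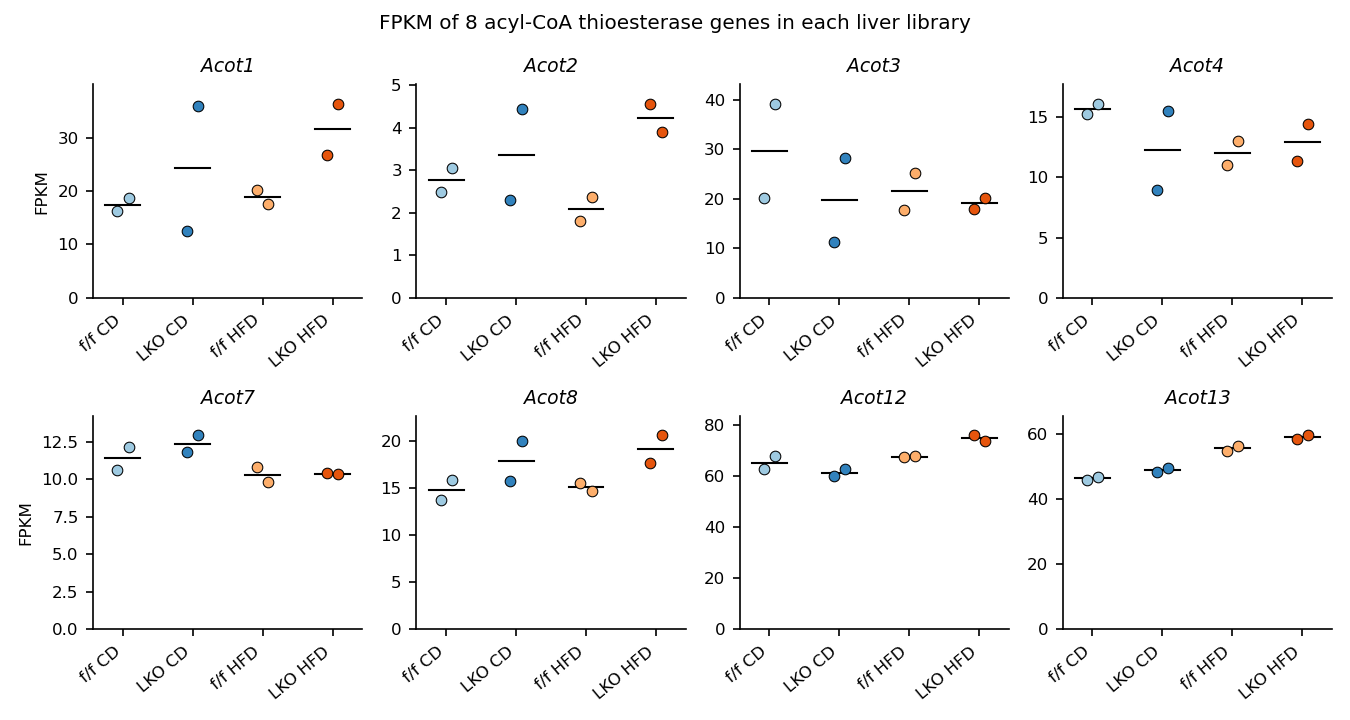
FPKM of each gene (vertical axis from 0, linear) in the 8 libraries by group, with a point per library and a line at the group mean. The CD-fed LKO libraries are far apart for *Acot1* to *Acot4*, while the points of *Acot13* nearly coincide within each group.

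The first comparison asks what loss of hepatic RORα does to these genes on HFD. *Acot1* and *Acot2* were higher in both LKO-labelled libraries than in both f/f-labelled ones, but neither passed adjustment over all genes. *Acot1*, the cytosolic enzyme, was at 26.8 and 36.3 FPKM in LKO and at 20.2 and 17.6 in f/f, a difference of 0.72 on the log2 scale (95% interval -0.26 to 1.70, limma, adjusted p = 0.633). *Acot2*, its mitochondrial counterpart, was at 4.57 and 3.90 FPKM in LKO and at 1.82 and 2.37 in f/f, a difference of 0.77 (0.20 to 1.35, limma, adjusted p = 0.374). Because reads cannot be assigned with certainty within this pair, their FPKM were also summed, which gave a difference of 0.76 (limma, adjusted p = 0.605). The permutation procedure of the study was also rewritten, with fewer regroupings than the study drew and no adjustment over genes, so that its calls are not those of the study. The rewritten procedure asks for a combined p of at most 0.05 and a change of at least 1.36-fold, and called both (combined permutation p = 0.00732 for *Acot1* and 0.00434 for *Acot2*). That rule called 4.58% of all genes tested. Without the second HFD-fed f/f library it called *Acot2* but not *Acot1*.

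The peroxisomal tandem members did not share this. *Acot3* was at 18.0 and 20.3 FPKM in LKO and at 17.9 and 25.3 in f/f, and *Acot4* at 11.4 and 14.4 against 10.97 and 13.02. Both overlapped between the genotypes, with differences of -0.12 (-1.20 to 0.95) and 0.11 (-0.45 to 0.67). The interval of *Acot3* includes a change as large as that of *Acot1*, and that of *Acot4* does not. With *Acot1* to *Acot6* summed, the difference was 0.33 (-0.54 to 1.19, limma, adjusted p = 0.811).

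Among the type II members, *Acot8*, the peroxisomal enzyme, was at 17.6 and 20.5 FPKM in LKO and at 15.5 and 14.6 in f/f, a difference of 0.34 (0.03 to 0.64, limma, adjusted p = 0.47). *Acot12* was at 76.1 and 73.7 against 67.5 and 67.9, a difference of 0.17 (limma, adjusted p = 0.495). *Acot13* was at 58.5 and 59.6 against 55.0 and 56.4, a difference of 0.13 (limma, adjusted p = 0.552). These 3 did not overlap between the genotypes either, and *Acot7* did, at 10.4 and 10.3 against 10.8 and 9.83. In all, 5 of the 8 members were separated and higher in LKO, where libraries of the groups did not overlap on the normalized scale for 42.2% of all genes, in either direction. By limma 0 of 8 passed adjustment (0.043% of all genes did) and 3, *Acot2*, *Acot8* and *Acot12*, had an unadjusted p under 0.05 (9.58% of all genes did). The median difference of the members was 0.15, against -0.000673 over all genes tested.

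Beside these values, the summed FPKM of 6 adipocyte markers was 5.70 to 5.92 in the HFD-fed LKO libraries and 1.04 to 2.25 in the HFD-fed f/f libraries. *Cfd* made up 5.45 and 5.29 FPKM of it in LKO and 0.488 and 1.87 in f/f, while *Adipoq* and *Lep*, which define adipocytes, were listed at 0 in both LKO libraries. In the HFD-fed f/f libraries *Adipoq* was at 0.377 and 0.212 FPKM and *Lep* at 0.0227 and 0, so these went against the sum. *Cidea* went with it, at 0.377 and 0.393 in LKO and at 0 and 0.0851 in f/f. The sum of 6 Kupffer cell and leukocyte markers was 56.3 to 82.5 in LKO and 46.9 to 56.2 in f/f, and its part in the differences was not tested. In bulk liver RNA, fewer cells of a type and less RNA per cell cannot be told apart.

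On CD, no member was called by either rule. By limma 0 of 8 passed adjustment (0.0172% of all genes did) and 0 of 8 had an unadjusted p under 0.05 (12.3% of all genes did). The rewritten procedure called 0 of 8 members and 5.4% of all genes. *Acot1* was at 12.6 and 35.9 FPKM in LKO and at 16.2 and 18.7 in f/f, so that the LKO libraries lay on either side of the f/f libraries, and *Acot2* did the same at 2.30 and 4.45 against 2.48 and 3.05. *Acot3* was at 11.2 and 28.2 against 20.1 and 39.2 (-0.62, -1.70 to 0.46), and *Acot4* at 8.95 and 15.5 against 15.2 and 16.1 (-0.35, -0.91 to 0.21). The LKO libraries decide what is read from these genes. Without the first of them the difference of *Acot1* was 1.02 and *Acot1* and *Acot2* were called by the rewritten procedure, and without the second it was -0.42 and *Acot3* and *Acot4* were called as lower.

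*Acot8* on CD was at 15.7 and 19.9 FPKM in LKO and at 13.7 and 15.8 in f/f, a difference of 0.28 (-0.03 to 0.58, limma, adjusted p = 0.437). *Acot13* was at 48.2 and 49.7 against 46.0 and 46.9, a difference of 0.09 (-0.05 to 0.22). *Acot12* lay the other way, at 59.96 and 62.77 in LKO and at 62.79 and 67.98 in f/f (-0.08, -0.25 to 0.08). *Acot7* was at 11.8 and 12.9 against 10.6 and 12.1. The 3 members separated on the normalized scale, *Acot8*, *Acot12* and *Acot13*, stand against 43% of all genes not overlapping. Before normalization *Acot8* overlapped, with its lower LKO library just below the higher f/f library.

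Whether the genotype difference depended on diet was tested as the difference of the differences. By limma 0 of 8 members passed adjustment (0.0344% of all genes did), and 1 of 8, *Acot12*, had an unadjusted p under 0.05 (8.35% of all genes did). The difference of *Acot12* was 0.26 (0.02 to 0.49, limma, adjusted p = 0.576). For *Acot1* it was 0.42 (-0.97 to 1.81) and for *Acot2* 0.62 (-0.19 to 1.43), so a genotype difference confined to HFD was not shown for either.

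Averaged over the diets, *Acot8* had the clearest genotype difference. It was higher in LKO by 0.31 (0.09 to 0.52, limma, adjusted p = 0.217), and its 4 LKO-labelled libraries (15.7 to 20.5 FPKM) barely overlapped the 4 f/f-labelled ones (13.7 to 15.8 FPKM) on the deposited scale. *Acot2* was higher by 0.46 (0.06 to 0.87, limma, adjusted p = 0.305) and *Acot13* by 0.11 (0.01 to 0.20, limma, adjusted p = 0.314). These 3 of 8 had an unadjusted p under 0.05, which 13.5% of all genes had, and 0 of 8 passed adjustment, which 0.103% of all genes did.

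Diet gave the firmest result of the family. *Acot13* rose with HFD averaged over the genotypes, and lay higher on HFD in both, of which LKO alone passed adjustment. In f/f it was at 46.0 and 46.9 FPKM on CD and at 55.0 and 56.4 on HFD, 1.20-fold higher by the means, with a difference of 0.29 (0.16 to 0.43, limma, adjusted p = 0.0652). In LKO it was at 48.2 and 49.7 on CD and at 58.5 and 59.6 on HFD, 1.21-fold higher, with a difference of 0.34 (0.20 to 0.47, limma, adjusted p = 0.0358). Averaged over the genotypes it rose by 0.31 (0.22 to 0.41, limma, adjusted p = 0.00864), and all 4 HFD libraries lay above all 4 CD libraries.

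*Acot12*, the acetyl-CoA thioesterase, also lay higher on HFD. In LKO it was at 59.96 and 62.8 FPKM on CD and at 76.1 and 73.7 on HFD, a difference of 0.36 (0.20 to 0.53, limma, adjusted p = 0.0469). In f/f it was at 62.8 and 68.0 on CD and at 67.5 and 67.9 on HFD, values that overlap before normalization, with a difference of 0.11 (-0.06 to 0.27, limma, adjusted p = 0.444). Averaged over the genotypes it was higher by 0.24 (limma, adjusted p = 0.032). The LKO calls of both genes are close to the threshold. Leaving out any 1 of the 8 libraries gave adjusted p-values of 0.0641 to 0.217 for *Acot12* and 0.0626 to 0.166 for *Acot13*, and both calls were also lost without normalization, with library medians set equal, without the variance trend and in a fit of these 4 libraries alone (0.0586 to 0.13). The averaged call of *Acot12* was lost in 8 of 8 such removals (adjusted p of 0.0528 to 0.107) and in the first 3 of those settings (0.0556 to 0.0781). The averaged call of *Acot13* held without each library in turn and in every alternative tried.

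No other member passed the test of diet. *Acot7*, which is best known from brain, was at 11.8 and 12.9 FPKM on CD and at 10.4 and 10.3 on HFD in LKO (-0.19, -0.40 to 0.02, limma, adjusted p = 0.276), and at 10.6 and 12.1 against 10.8 and 9.83 in f/f. *Acot8* differed by 0.07 (-0.24 to 0.37) in f/f and 0.13 (-0.18 to 0.43) in LKO, and both intervals include 0. *Acot1* differed by 0.14 (-0.84 to 1.12) in f/f and 0.56 (-0.42 to 1.54) in LKO, *Acot3* by -0.37 and 0.13, and *Acot4* by -0.32 and 0.14. *Acot2* was at 2.48 and 3.05 FPKM on CD and at 1.82 and 2.37 on HFD in f/f, and the groups did not overlap (-0.27, -0.85 to 0.30, limma, adjusted p = 0.581).

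By limma 0 of 8 members passed adjustment for HFD against CD in f/f, where 1.33% of all genes did, and 1 of 8 (*Acot13*) had an unadjusted p under 0.05, where 19.2% of all genes did. In LKO it was 2 of 8, *Acot12* and *Acot13*, by either measure, where 3.02% of all genes passed adjustment and 21.3% had an unadjusted p under 0.05. Averaged over the genotypes it was again these 2 of 8 by either measure, where 9.89% of all genes passed adjustment and 27.9% had an unadjusted p under 0.05. On the normalized scale, members whose libraries did not overlap between the diets numbered 4 of 8 in f/f, 2 of them lower on HFD. In LKO they numbered 3 of 8, 1 of them lower. The shares of all genes were 50.3% in f/f and 52.9% in LKO. The 4 in f/f include *Acot12*, which overlapped before normalization. Beside the diet comparison, the sum of 5 stellate cell markers was 58.1 to 79.6 FPKM on HFD and 31.7 to 52.6 on CD. *Dcn* made up 52.5 to 72.2 FPKM of it on HFD and 26.4 to 45.3 on CD, while *Col1a1* and *Col3a1* overlapped between the diets. Averaged over the genotypes, 3 of the 5 were higher on HFD. The sum of 4 endothelial markers was 18.1 to 23.1 FPKM on HFD and 13.8 to 18.7 on CD. The part of these cell types in the differences was not tested.

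**Figure D4:**
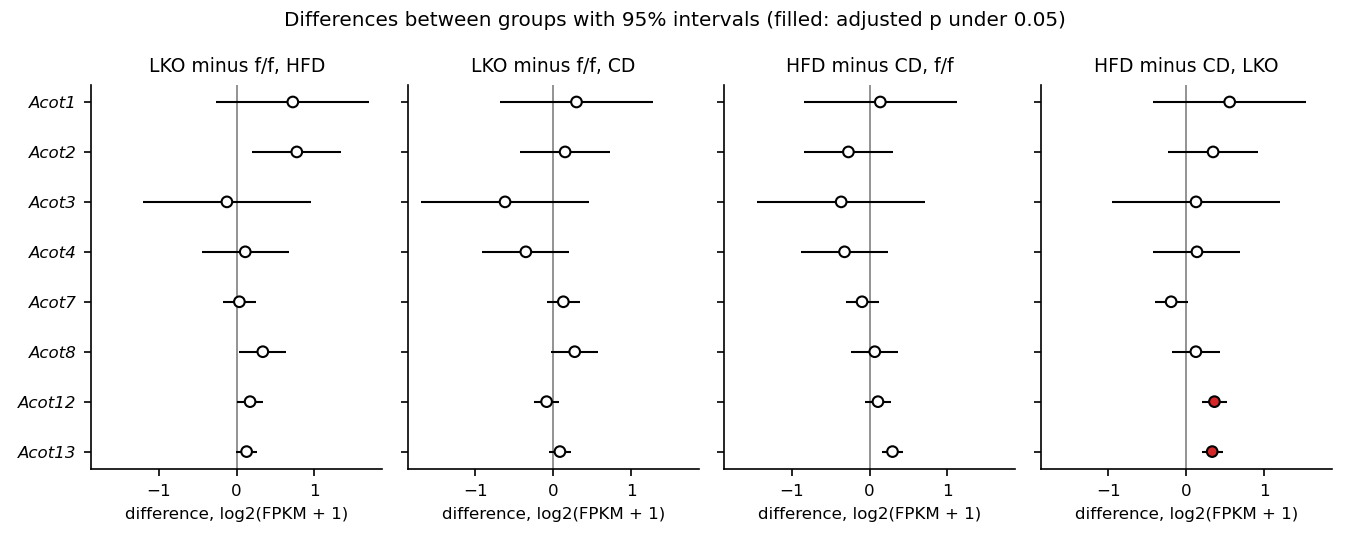
Difference of group means on the normalized log2(FPKM + 1) scale with its 95% interval for each gene in 4 comparisons, where filled points have a limma adjusted p under 0.05. *Acot12* and *Acot13* in HFD against CD under the LKO label are the filled points, and the intervals of *Acot1* and *Acot3* are the widest in each panel.

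Counts of related genes are to be read beside the 9.58% of all genes with an unadjusted p under 0.05 and the 0.043% that passed adjustment for LKO against f/f on HFD. Of 35 PPARα targets of fatty acid oxidation, none of them a listed thioesterase, 21 had an unadjusted p under 0.05 for LKO against f/f on HFD, all of them higher in LKO, and 0 passed adjustment by limma. Their median difference was 0.27. *Crat*, the carnitine acetyltransferase, was at 40.8 and 39.6 FPKM in LKO and at 24.3 and 19.4 in f/f (0.88, limma, adjusted p = 0.228). *Cpt1b*, the muscle form of the carnitine palmitoyltransferase of the outer mitochondrial membrane, was at 3.72 and 6.52 against 1.72 and 1.92 (1.09, limma, adjusted p = 0.321), and *Decr1*, a reductase of unsaturated acyl-CoA, differed by 0.29. On CD 6 of the 35 had an unadjusted p under 0.05, all higher in LKO, beside 12.3% of all genes, with a median of 0.09. Tested as the difference between the diets, 3 of the 35 were higher and 1 lower at that threshold, beside 8.35% of all genes. The median there was 0.22 and 0 passed adjustment by limma, so a rise confined to HFD was not shown. Averaged over the diets 20 of the 35 were higher in LKO at that threshold, beside 13.5% of all genes.

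Of 16 acyl-CoA synthetases tested of 21 listed, which make the substrates of the thioesterases, 5 were higher in LKO on HFD at an unadjusted p under 0.05, 0 were lower and 0 passed adjustment by limma. The lowest p fell to *Acsl5* (0.56, limma, adjusted p = 0.144), *Acss3* (0.65) and *Slc27a1* (0.61). Of 12 genes of coenzyme A synthesis and breakdown tested of 13 listed, 3 were higher, 1 was lower and 0 passed adjustment by limma. *Vnn1*, the pantetheinase, was at 69.2 and 92.9 FPKM in LKO and at 42.5 and 38.7 in f/f (1.00, limma, adjusted p = 0.151). *Vnn3* differed by 0.31 and *Nudt7*, the peroxisomal coenzyme A diphosphatase, by -0.42. The list of other thioesterases and related acyltransferases also held the transfer protein *Pctp*, and 9 of its 14 genes were tested. Only *Pctp*, the partner of *Acot13* and not itself an enzyme of these kinds, had an unadjusted p under 0.05. It was at 48.0 and 53.8 FPKM in LKO and at 40.8 and 36.2 in f/f (0.42, limma, adjusted p = 0.357). *Acnat1* and *Ppt1* differed by 0.29 and 0.19. Of 16 nuclear receptors and coregulators, *Pparg* was higher (0.42) and *Nr1d2* lower (-0.36) at an unadjusted p under 0.05, *Ncoa2* differed by -0.25, and 0 passed adjustment by limma.

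For HFD against CD in f/f, where 1.33% of all genes passed adjustment against 0.043% for genotype on HFD, some of these lists held adjusted calls. Of the PPARα targets 2 of 35 passed adjustment, *Cyp4a14* (2.42, limma, adjusted p = 0.00835) and *Abcd2* (1.53, limma, adjusted p = 0.0373), both higher on HFD, and *Acadl* differed by 0.36. Of the synthetases 3 of 16 passed, *Acsl4* (-0.995) and *Acsl5* (-0.62), which fell, and *Acsm3* (0.72), which rose (limma, adjusted p = 0.0373 to 0.038). Of the coenzyme A genes *Vnn1* rose by 1.03 (limma, adjusted p = 0.0439), while *Pank1*, a pantothenate kinase, and *Nudt7* differed by -0.49 and -0.77. In the list of other thioesterases, acyltransferases and *Pctp*, 0 of 9 passed by limma, with *Acnat2* at 1.12, *Ppt2* at 0.25 and *Pctp* at 0.21. Of these 9, 2 had an unadjusted p under 0.05, beside 19.2% of all genes. Of the nuclear receptors *Nr1d1* rose by 1.05 (limma, adjusted p = 0.0373), and *Rxra* and *Ppargc1a* differed by 0.32 and -0.35. *Acsl5* thus lay lower on HFD in f/f and higher in LKO than in f/f on HFD, at 50.4 and 52.0 FPKM in HFD-fed f/f against 71.5 to 97.9 in the other 6 libraries.

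The group means of 3 members, *Acot1*, *Acot2* and *Acot3*, spanned more than this 1.36-fold, and for these the 5 genes with the most similar library profile were sought among 9838 other genes above 1 FPKM in all libraries. Likeness was the root mean square difference of normalized log2 values over the 8 libraries, after subtracting each gene's mean. All points share these 8 libraries, so this describes them only. The genes nearest to *Acot1* were *Krt23* (0.14), *Ehhadh* (0.24), *Acsl1* (0.25), *Acaa1b* (0.26) and *Chrna2* (0.28), against an SD of 0.50 for *Acot1* itself. *Ehhadh* and *Acaa1b* encode enzymes of peroxisomal beta-oxidation, and *Acsl1* the main long-chain acyl-CoA synthetase of liver. Those nearest to *Acot2* were *Pex11a* (0.14), *Pdk4* (0.15), *Asap1* (0.16), *Plin5* (0.16) and *Ehhadh* (0.17), against an SD of 0.35. *Pex11a* acts in peroxisome proliferation, *Pdk4* restrains pyruvate dehydrogenase and *Plin5* coats lipid droplets.

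*Acot3* had other neighbours, *Manf* (0.28), *Slco1a6* (0.28), *Plpp5* (0.29), *Hspa5* (0.29) and *Tmed3* (0.29), against an SD of 0.47, so that the match was looser. *Manf* and *Hspa5* belong to protein folding in the endoplasmic reticulum. Within the family, *Acot3* and *Acot4* were at 0.29, with 5 genes nearer to *Acot3* than *Acot4* was. *Acot1* and *Acot2* were at 0.30, with 12 genes nearer to *Acot1*, whereas 7874 genes were nearer to *Acot1* than *Acot3* was. *Acot12* and *Acot13* were at 0.08, with 138 genes nearer to *Acot12*. Among the members, *Acot2* was thus the nearest to *Acot1* and *Acot4* the nearest to *Acot3*, but not the reverse. *Acot2* was nearer to *Acot8* (0.23) than to *Acot1*, and *Acot4* was nearer to *Acot7* (0.26), *Acot12* (0.28) and *Acot8* (0.289) than to *Acot3* (0.294). The measure is not scaled by spread, and *Acot4* itself had an SD of 0.25, below each of its differences given here. Which member is nearest to *Acot4* therefore does not show a shared pattern. The same holds for *Acot8* as the nearest to *Acot2*, since *Acot8* had an SD of 0.19, below their difference of 0.23.

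**Figure D5:**
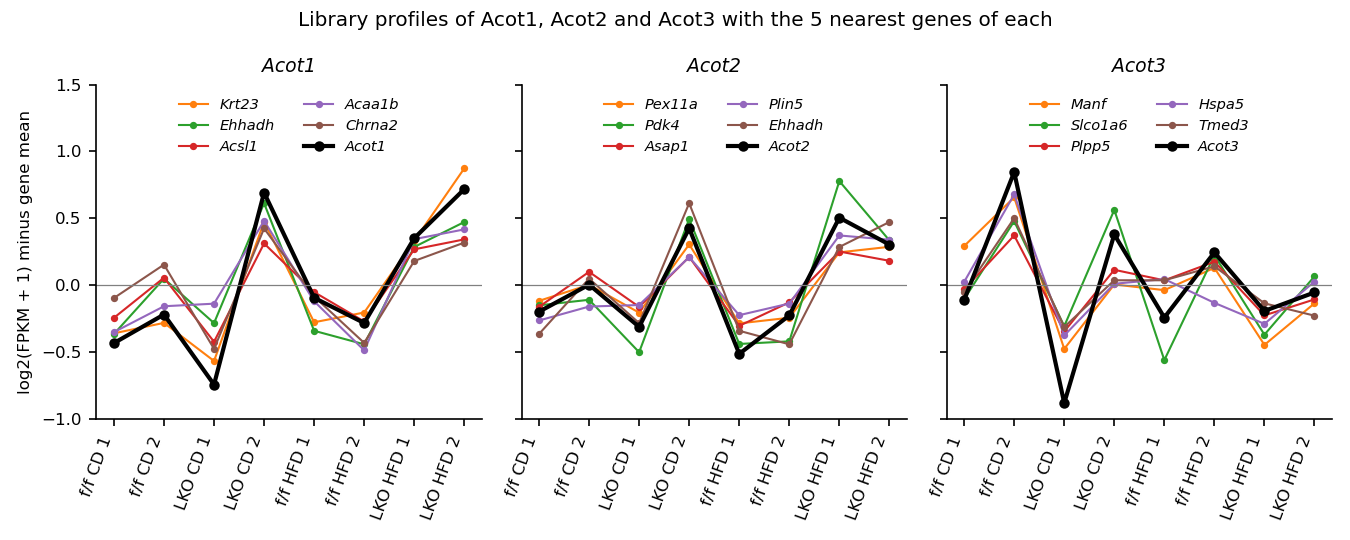
Normalized log2(FPKM + 1) minus the gene's mean in the 8 libraries for *Acot1*, *Acot2* and *Acot3* (black) and the 5 genes nearest to each (colours). *Acot1* and *Acot2* and their neighbours are high in the second CD-fed LKO library and both HFD-fed LKO libraries, and *Acot3* and its neighbours are highest in the second CD-fed f/f library, except *Slco1a6*, which is highest in the second CD-fed LKO library.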

How the data were processed

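RNA of 8 pooled liver libraries was sequenced after poly(A) selection with a TruSeq RNA v2 kit. The authors trimmed reads with cutadapt (1.0 in the submitters' processing notes), aligned them to GRCm38 with TopHat2 (2.0.7) and deposited Cufflinks FPKM per gene, not on a log scale. These values hold no read counts, so count tests were not run and precision was read from the spread between libraries. Whole reads cannot be recovered from them, since Cufflinks divides fragments between transcripts by estimation.

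Symbols, positions and transcripts came from GENCODE M21 by Ensembl identifier (36341 of 38283 genes had a symbol). Genes above 1 FPKM in at least 1 library (11634) were put on the log2(FPKM + 1) scale, quantile normalized and fitted with limma 3.58.1 in R 4.3.3, with 1 mean per group and a trend of variance on level. P-values were adjusted by the Benjamini-Hochberg method over all genes, separately for each of 7 comparisons. The fit had 4 residual degrees of freedom, to which moderation added 2.8. The study's permutation procedure was rewritten with 100 of 210 regroupings (seed 11). Replicate libraries come from different mice, pooled 2 by 2, so p-values measure the spread between pools. The steps were tested on simulated data. Sequences were compared with Biopython 1.88, and figures drawn with matplotlib 3.10.9.

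The 8 members, the gene lists and the marker lists were chosen with earlier results of these data known. Named genes are the 8 members, *Rora*, the 3 genes of each list with the lowest p in a described comparison, and the 5 nearest profiles of members whose group means span over 1.36-fold. *Rora* and marker genes were named as checks. The alternatives tried are given in the closing section. Quantitative PCR and other measurements of the study were not analysed here.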

Additional observations from a re-analysis of the deposited data

Results flagged for a closer look

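*Acot12* was the member whose genotype difference went opposite ways on the 2 diets, with both LKO-labelled libraries above both f/f-labelled ones on HFD and below both on CD. The difference of the differences was 0.26 on the normalized log2 scale (95% interval 0.023 to 0.49), which by limma had an unadjusted p of 0.0354 and an adjusted p of 0.576, and so did not pass. On CD the nearest libraries were at 62.77 FPKM in LKO and 62.79 FPKM in f/f, so that the separation there rests on a gap smaller than that between the replicates of any of the 4 groups.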

How the results depend on the processing

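The call that held in all 15 alternatives was the rise of *Acot13* with HFD averaged over genotypes (adjusted p of 0.00492 to 0.0395). On HFD, *Acot1*, *Acot2*, *Acot8*, *Acot12* and *Acot13* kept a positive genotype difference in every alternative, and 0 passed adjustment in any. Over 56 gene results, 31 kept their direction throughout. With 2 libraries per group, and no counts, small differences of the tandem genes could not be resolved, and their reads cannot be divided with certainty.

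For HFD against CD in LKO, where 2 members passed adjustment, the count was 0 without normalization, with library medians set equal, without the trend and in a fit of the libraries of the comparison alone, 1 with genes above 0 FPKM in at least 1 library, and 0 (range 0 to 0) without each library in turn, where limma takes the lone library of a group to vary like the others. Averaged over genotypes it was 1, against 2, without normalization, with medians set equal and without the trend, and 1 to 2 without each library. In f/f it was 1, against 0, with genes above 1 FPKM in all 8 libraries. Counts with an unadjusted p under 0.05 changed as follows. On HFD the count of 3 became 5 in a fit of the 4 libraries alone and 0 to 3 without each library. On CD the count of 0 became 0 to 3 without each library. For the difference between diets the count of 1 became 0 with medians set equal or without the trend, and 0 to 3 without each library. For HFD against CD in f/f the count of 1 became 2 in a fit of the 4 libraries alone, and in LKO the count of 2 became 2 to 5 without each library. Averaged over diets the genotype count of 3 became 1 to 4 without each library, and averaged over genotypes the diet count of 2 became 2 to 4. The rewritten procedure called 2 members on HFD and 1 when an unadjusted limma p replaced its p. Without each library it called 1 to 2 on HFD and 0 to 2 on CD.

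Same-numbered libraries come from different mice, and Pearson's r of their deviations was -0.00371 to 0.149. A low r does not show whether a single gene varies with the replicate number. *Acot3* and *Acot4* were higher in the second library of every group on the normalized scale, and the other members were not. With the replicate number as a block, the standard error for genotype on HFD went from 0.454 to 0.259 for *Acot3* and from 0.235 to 0.158 for *Acot4*. With the replicate number as a block, the count of adjusted calls was 0 for HFD against CD in LKO and 1 averaged over genotypes, the count with an unadjusted p under 0.05 was 1 for the genotypes on CD and 0 for the difference between diets, and the study's fold cutoff with a blocked limma p called 1 member on HFD. The block left every other count of members within 1.5 times. Over all genes, it took the adjusted calls for HFD against CD from 155 to 34 in f/f and from 351 to 223 in LKO. With genes above 1 FPKM in all 8 libraries they were 323 in f/f, 570 in LKO, 7 against 2 for genotype on CD, 50 against 12 for genotype averaged over diets, and 0 against 4 for the difference between diets, where 874 genes had an unadjusted p under 0.05.

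With the tandem genes summed before the fit, directions turned for genes that moved apart. The sum of *Acot1* to *Acot6* gave 0.33 on HFD, against a negative value for *Acot3*, and -0.20 on CD, against positive values for *Acot1* and *Acot2*. It gave 0.066 for genotype averaged over diets and 0.10 for diet averaged over genotypes, against negative values for *Acot3* and *Acot4*, and -0.16 for diet in f/f, against a positive value for *Acot1*. The sum of *Acot1* and *Acot2* gave 0.070 for diet in f/f, against a negative value for *Acot2*. The cause was not tested.

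Directions also turned when single libraries were left out, mostly a CD-fed LKO library. For genotype on HFD the range was -0.37 to 0.12 for *Acot3*, -0.034 to 0.26 for *Acot4* and -0.015 to 0.086 for *Acot7*. For genotype on CD it was -0.42 to 1.02 for *Acot1*, -0.21 to 0.52 for *Acot2*, -1.25 to 0.012 for *Acot3* and -0.72 to 0.021 for *Acot4*. For the difference between diets it was -0.29 to 1.14 for *Acot1*, -0.14 to 1.12 for *Acot3* and -0.10 to 0.22 for *Acot8*. For diet in f/f it was -0.84 to 0.11 for *Acot3* and -0.029 to 0.16 for *Acot8*. For diet in LKO it was -0.16 to 1.28 for *Acot1*, -0.022 to 0.71 for *Acot2*, -0.50 to 0.76 for *Acot3*, -0.23 to 0.51 for *Acot4* and -0.036 to 0.28 for *Acot8*. For genotype averaged over diets it was -0.31 to 0.066 for *Acot4*. For diet averaged over genotypes it was -0.0092 to 0.71 for *Acot1*, -0.15 to 0.22 for *Acot2*, -0.43 to 0.20 for *Acot3* and -0.28 to 0.094 for *Acot4*, and *Acot1* passed adjustment there (0.71, adjusted p = 0.0464) without the second CD-fed LKO library.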
